A study of Mus musculus with 6 samples.

Results

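The genes described here are 42 antioxidant genes of the mouse, chosen by symbol from the 54532 genes that the deposited count table lists. They comprise the transcription factor NRF2 (gene Nfe2l2) and its inhibitor Keap1, 6 genes that make or recycle glutathione, 5 glutathione peroxidases, 5 thioredoxins and thioredoxin reductases, 6 peroxiredoxins with sulfiredoxin, 3 superoxide dismutases with catalase, the quinone reductase Nqo1 with the ubiquinone reductase Aifm2, and 11 glutathione S-transferases. All 42 were found in the table, and all 42 had enough reads to be tested. The rule was a list of symbols and set no threshold on measured values, but the list was drawn up with earlier results of these data known.

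Cells remove peroxides mainly with a pair of thiol systems. Glutathione, a peptide built from glutamate, cysteine and glycine, feeds the glutathione peroxidases and transferases and is returned to its reduced form by glutathione reductase at the expense of NADPH, while thioredoxin and its reductase feed the peroxiredoxins. NRF2 turns on many of these genes through a DNA sequence called the antioxidant response element. In unstressed cells KEAP1 marks NRF2 for degradation, so that NRF2 is controlled largely at the protein level. In white fat, where stored and mobilized fatty acids can be oxidized to lipid peroxides, Gpx4 and Aifm2 (which encodes FSP1) protect membranes against ferroptosis, an iron-dependent form of cell death.

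The samples were bulk RNA-seq libraries from epididymal white adipose tissue (eWAT) of male C57BL/6 mice, 6 to 10 weeks old when obtained. In the cachexia group (n = 3), mice had been inoculated under the skin with LLC cells, a mouse lung carcinoma line, and were counted as cachectic when they had lost body weight. In the control group (n = 3), mice of the same strain carried no label other than control, and what they were given in place of tumor cells is not given in the sources used here. Tissue was taken on day 21. Tumor, weight loss and cachexia go together in this design and cannot be told apart. The labels do not say whether a sample was 1 mouse or a pool, so p-values measure the spread between these samples.

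The libraries held between 14928766 and 18855546 counted reads, and every cachexia library (at most 17278966) was shallower than every control library (at least 18475204). Adipocyte genes were high in all 6 libraries, with a summed level of 33707 to 50593 CPM (counts scaled by TMM-normalised library size) in control samples and 20961 to 42446 CPM in cachexia samples. None of 14 epididymis genes had enough reads to be tested. Their summed level was 6.27, 1.49 and 1.42 CPM in control samples and 1.69, 0.798 and 1.70 CPM in cachexia samples, highest in control replicate 1. Several lists of genes that mark other cells moved with the groups. Counts in each list are to be read against all genes tested, of which 9.0% were higher and 8.63% lower in edgeR. All 6 tested erythroid genes were higher in cachexia (summed 252 to 451 CPM in control samples, 1334 to 2856 CPM in cachexia samples), as were 10 of 12 neutrophil genes (44.7 to 182 against 309 to 848 CPM) and 5 of 10 endothelial genes (1740 to 1863 against 2674 to 3894 CPM). Of 10 progenitor genes, 4 were lower and 1 higher (5263 to 5986 against 2508 to 3375 CPM). Of 12 adipocyte genes 2 were higher and 1 lower, of 13 macrophage genes 2 were higher and 2 lower (1612 to 2008 against 1339 to 2077 CPM), and of 9 lymphocyte genes 1 was lower (12.4 to 24.0 against 7.02 to 12.6 CPM). Of 8 mesothelial genes 0 passed in edgeR, DESeq2 or limma-voom, and 1 was lower at an unadjusted p under 0.05. Control replicate 1 stood apart, with a summed level of 489.7 CPM over 8 epithelial genes chosen after their values were seen, against 0.860 to 4.90 CPM in the other 5 samples. In bulk tissue, fewer cells of a type and less RNA per cell cannot be told apart, and the part of these shifts in the changes below was not tested.

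The sequence that NRF2 binds is shown first, because it defines the pathway. The core of the antioxidant response element was searched as TGACNNNGC on both strands in the 250 bases before each RefSeq start (build GRCm38.p6). A gene can have several starts, and 37 of the 42 genes had 44 promoter sequences. Gclc, Gsr, Gsta4, Prdx6 and Sod3 had none and were not searched. The core was found for 8 of the 37 genes, or 21.6%, and in 11.5% of all genes with a promoter sequence. In the lines below the 9 bases of the core are in capitals, each sequence is written 5′ to 3′ on the strand that carries the core, and the coordinates cover the whole run of letters.
Gclm, chr3:122245413-122245441, minus strand: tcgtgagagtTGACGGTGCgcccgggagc
Gsta3, chr1:21240454-21240482, plus strand: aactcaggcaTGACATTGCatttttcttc
Gstm5, chr3:107895802-107895830, plus strand: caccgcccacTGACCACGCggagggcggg
Mgst1, chr6:138140461-138140489, minus strand: ccccgcctccTGACCGTGCcaagccccgc
Nfe2l2, chr2:75704885-75704913, minus strand: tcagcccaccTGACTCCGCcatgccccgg
Prdx1, chr4:116685456-116685484, minus strand: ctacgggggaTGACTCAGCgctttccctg
Sod1, chr16:90220696-90220724, minus strand: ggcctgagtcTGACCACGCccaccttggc
Txnrd1, chr10:82859104-82859132, minus strand: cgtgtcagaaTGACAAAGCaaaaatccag
The Prdx1 core overlaps the AP-1 motif TGANTCA, which was found upstream of 4 of the 37 genes (Gstm5, Gstp1, Prdx1 and Srxn1, 10.8%) and of 7.82% of all genes. Of the 8 genes that carry the core, Sod1 was higher in cachexia and Gsta3 was lower, while Gclm, Gstm5, Mgst1, Nfe2l2, Prdx1 and Txnrd1 did not pass the test. Among all genes tested 9.0% were higher and 8.63% lower, so with 8 genes these counts say little. A match is only a run of letters and does not show that NRF2 binds there. By the deposited coordinates, the sites of Mgst1 (chr6:138140316-138156755) and Txnrd1 (chr10:82833951-82897712) lie inside the gene, before a start further in.

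Of the 42 genes, 5 were higher and 3 were lower in the eWAT of cachectic mice at an adjusted p under 0.05 (edgeR's quasi-likelihood test with Benjamini-Hochberg adjustment over 16003 genes). The genes that rose were Gpx3, Gsto1, Slc3a2, Sod1 and Gsr, and the genes that fell were Srxn1, Gsta3 and Gstt1. As shares, 11.9% of the 42 were higher and 7.14% lower, against 9.0% and 8.63% of all genes tested, so that 19.0% changed in either direction where 17.6% of all genes did. Their median log2 fold change of cachexia over control was -0.08, and that of all genes tested was -0.003. Values of the groups did not overlap for 18 of the 42 genes (42.9%), 9 with cachexia above and 9 with cachexia below, and for 40.5% of all genes tested, 20.4% above and 20.1% below. By count and by median, the 42 genes moved about as often as genes in general, and in both directions. With 3 samples against 3, an exact permutation test of a single gene cannot give a two-sided p below 0.1.

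**Figure D1:**
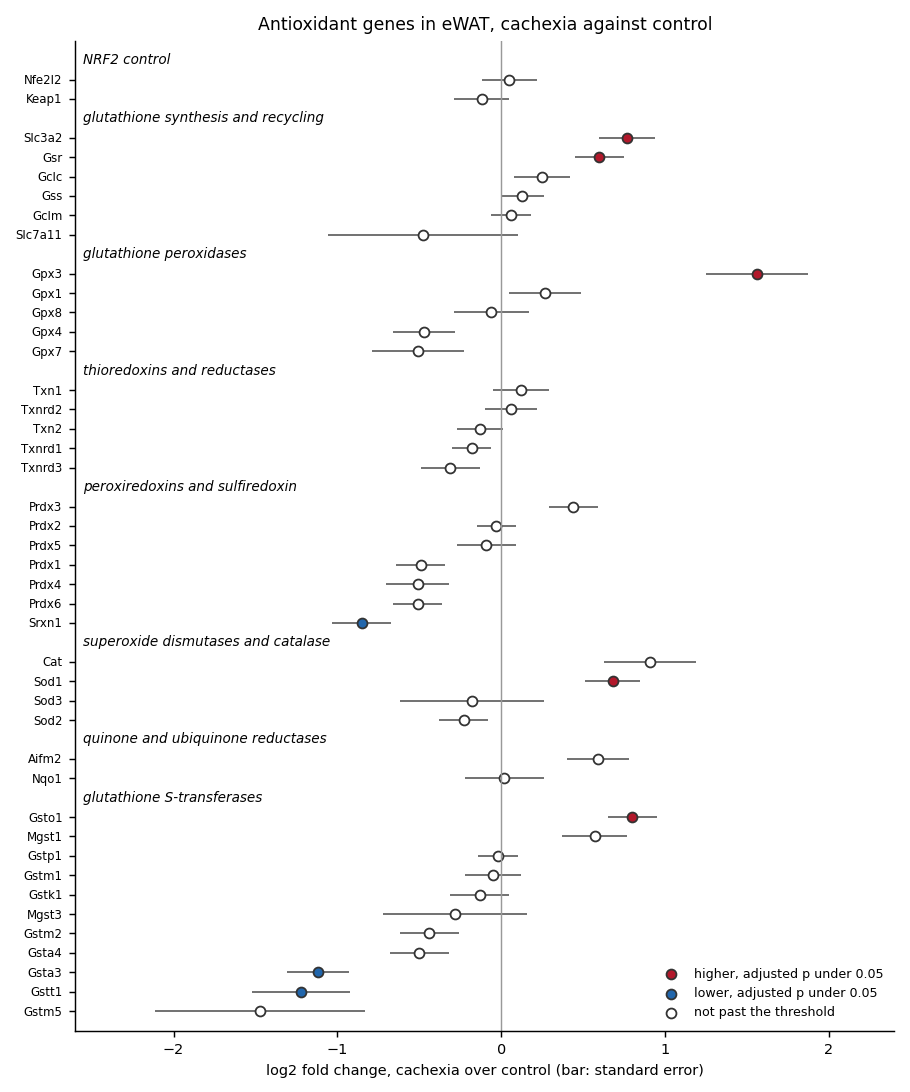
Log2 fold change of cachexia (n = 3) over control (n = 3) for each of the 42 genes, grouped by family, with the standard error from edgeR as a bar and color for genes past the threshold. Red points mark 5 higher genes, led by Gpx3 at 1.56, and blue points mark 3 lower genes, of which Gstt1 at -1.22 lies lowest.

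The controllers of the pathway did not pass the test, and 0 of the 2 genes had an unadjusted edgeR p under 0.05 or passed in DESeq2. Over all genes, 9.0% were higher and 8.63% lower in edgeR, and 12.2% and 12.1% in DESeq2. Nfe2l2, which encodes NRF2, was measured at 117, 109 and 127 CPM in the control samples and at 120.1, 98.3 and 146 CPM in the cachexia samples. Its log2 fold change was 0.05 ± 0.17 (SE, n = 3 and 3; edgeR adjusted p = 0.867), with the lowest and the highest value both in cachexia. Keap1 was at 53.4, 48.9 and 49.6 CPM in control samples and at 49.7, 54.5 and 35.6 CPM in cachexia samples, a log2 fold change of -0.12 ± 0.17 (edgeR adjusted p = 0.657). These are transcript levels, and the amount or location of the NRF2 protein was not measured.

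The 6 genes of glutathione synthesis and recycling held 2 of the 5 genes that rose, where 9.0% of all genes were higher. The enzymes that build glutathione were not among the genes that rose. Gsr, the glutathione reductase (ENSMUSG00000031584, chr8:33652523-33698163), was at 71.0, 61.3 and 57.6 CPM in control samples and at 87.1, 89.7 and 110.2 CPM in cachexia samples. All 3 cachexia values lay above all 3 control values, and the log2 fold change was 0.60 ± 0.15 (1.51-fold, edgeR adjusted p = 0.0298). Slc3a2 (ENSMUSG00000010095, chr19:8706882-8723369) encodes the heavy chain CD98, which partners several amino acid transporters besides the cystine carrier. It rose from 155, 132 and 144 CPM to 199.7, 239 and 294 CPM, also with no overlap, a log2 fold change of 0.77 ± 0.17 (1.71-fold, edgeR adjusted p = 0.0229). The light chain that carries cystine into the cell, Slc7a11, was the least abundant of the 42 genes, with 111 reads over all 6 libraries. Its levels were 0.652, 1.26 and 1.87 CPM in control samples and 0.525, 0.614 and 1.57 CPM in cachexia samples, which overlap (log2 fold change -0.48 ± 0.58, edgeR adjusted p = 0.604). At this depth a moderate change of Slc7a11 was not detectable.

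The rate-limiting ligase of glutathione synthesis is built from the subunits Gclc and Gclm. Gclc was at 45.7, 44.6 and 44.3 CPM in control samples and at 49.6, 67.3 and 43.5 CPM in cachexia samples (log2 fold change 0.25 ± 0.17, edgeR adjusted p = 0.331), with cachexia replicate 2 above the rest. Gclm was at 62.3, 62.6 and 59.0 CPM and at 62.5, 70.4 and 58.3 CPM (log2 fold change 0.06 ± 0.12, edgeR adjusted p = 0.780). The second enzyme of the route, Gss, had overlapping values and a log2 fold change of 0.13 ± 0.13 (edgeR adjusted p = 0.524), but Acss2 lies across it on the other strand and strand use in counting is not given in the sources used here. The calls of the pair that rose were each lost in some fits that left out a sample. Their log2 fold changes in those 6 fits stayed between 0.49 and 0.68 for Gsr and between 0.62 and 0.90 for Slc3a2. Over all genes, the 1440 higher calls fell to 600 without control replicate 2 and to 382 without control replicate 3. Gsr had an edgeR adjusted p of 0.103 without control replicate 2, 0.129 without control replicate 3 and 0.0536 without cachexia replicate 3, and Slc3a2 had 0.0925 without control replicate 2 and 0.0957 without control replicate 3.

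Among the 5 glutathione peroxidases, 1 gene rose (9.0% of all genes were higher) and it was the most abundant of all 42. Gpx3, the secreted peroxidase of plasma and extracellular fluid (ENSMUSG00000018339, chr11:54902453-54910377), was at 1636, 2048 and 1394 CPM in control samples and at 5257, 6424 and 3319 CPM in cachexia samples. The lowest cachexia sample, replicate 3, stood well above the highest control sample, and the log2 fold change was 1.56 ± 0.31 (2.95-fold, edgeR adjusted p = 0.0145). Without control replicate 3 the log2 fold change was 1.44 and the edgeR adjusted p was 0.0797. Gpx1, the cytosolic peroxidase, came second in level. It was at 710.1, 789 and 768 CPM in control samples and at 888, 686 and 1159 CPM in cachexia samples, which overlap (log2 fold change 0.27 ± 0.22, edgeR adjusted p = 0.429).

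Gpx4, which reduces phospholipid peroxides inside membranes and holds back ferroptosis, was at 657, 722 and 778 CPM in control samples and at 538, 418 and 599 CPM in cachexia samples. Every cachexia value was below every control value, but the log2 fold change of -0.47 ± 0.19 did not pass the threshold (edgeR adjusted p = 0.122). DESeq2 gave it an adjusted p of 0.0433, so its call depends on the tool. Of the 100-base windows of Gpx4 transcripts, 25.2% also occur in other loci, among them the pseudogene Gpx4-ps2, so reads may have been split or lost. Gpx7 and Gpx8, peroxidases of the endoplasmic reticulum, had overlapping values and log2 fold changes of -0.51 and -0.06 (edgeR adjusted p = 0.241 and 0.884).

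Because levels of different genes can be compared only per length, the deposited FPKM values were summed over the 42 genes. The sum was 4471, 4698 and 4549 FPKM in control samples and 6963, 6941 and 5850 FPKM in cachexia samples, equal to 1.36% to 1.47% and to 1.83% to 2.30% of all FPKM. Gpx3 alone made up 20.0%, 23.7% and 16.7% of the sum in control samples and 40.8%, 49.8% and 30.5% in cachexia samples. With Gpx3 left out, the sums were 3578, 3585 and 3790 FPKM in control samples and 4121, 3485 and 4064 FPKM in cachexia samples, which overlap. The higher sum in cachexia thus lay mostly in 1 gene. After Gpx3 and Gpx1, the order by mean FPKM in control samples went on with Gpx4 (412 ± 34.2), Mgst1 (359 ± 34.3), Gstm1 (285 ± 35.8) and Cat (278 ± 53.1; SD, n = 3 each). In cachexia samples Mgst1 (528 ± 96.2) and Cat (515 ± 167) stood next to Gpx1 (618 ± 161), closer together than their SDs, ahead of Gpx4 (294 ± 52.4) and Gstm1 (272 ± 36.1). At the other end of the order stood Nqo1, Txnrd2, Gss and Slc7a11, all under 7 FPKM in both groups.

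**Figure D2:**
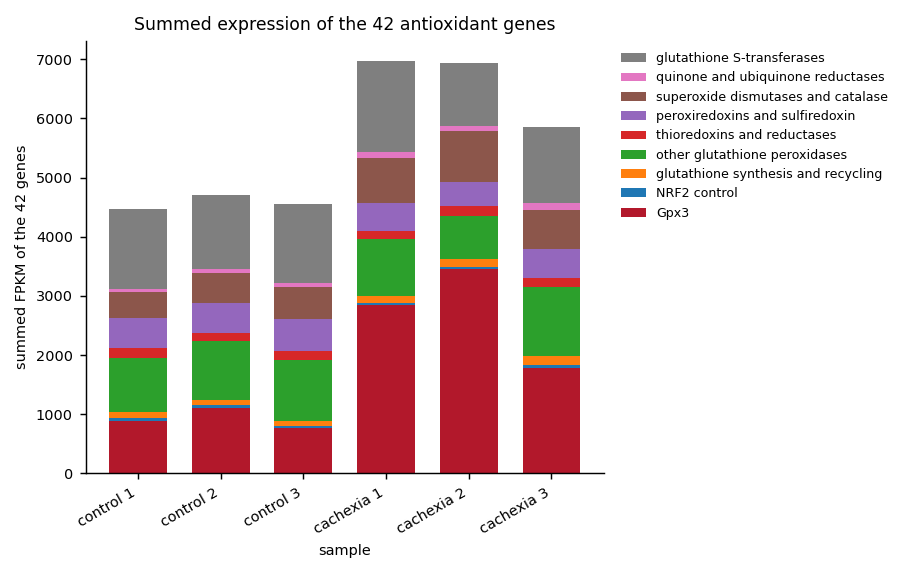
Summed FPKM of the 42 genes in each of the 6 samples, stacked by family with Gpx3 drawn on its own at the base. Gpx3 takes 16.7% to 23.7% of the bar in control samples and 30.5% to 49.8% in cachexia samples, and the rest of the bars overlap in height between the groups.

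**Figure D3:**
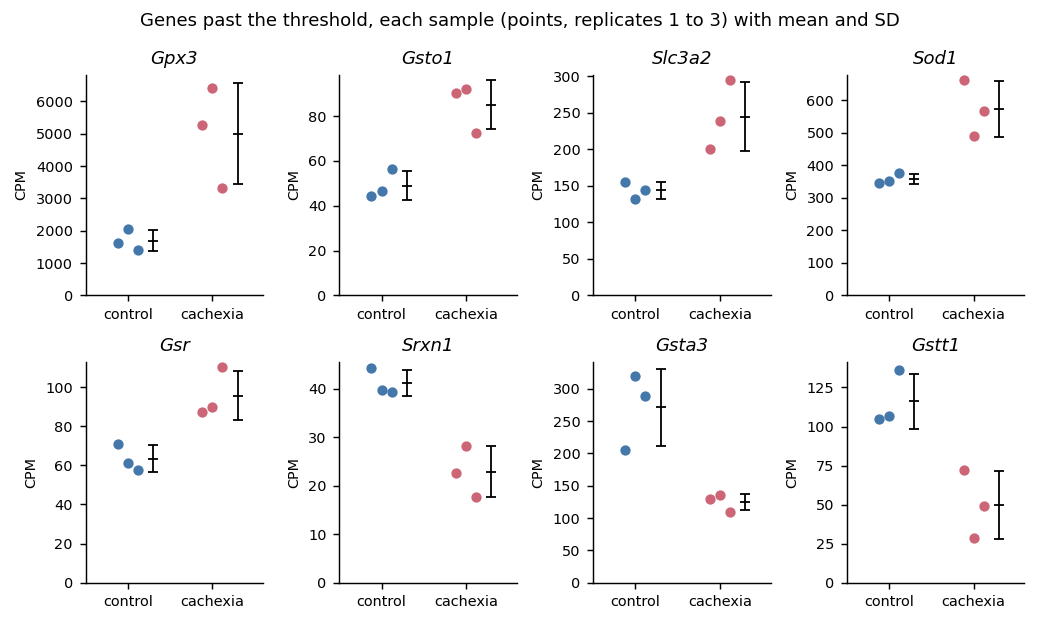
CPM in each sample (points, replicates 1 to 3 from left to right) with the group mean and SD (bars) for the 8 genes past the threshold, each with its own linear axis from 0. In all 8 panels the 3 cachexia points lie entirely above or entirely below the 3 control points.

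Of the 5 thioredoxin genes 0 passed the test in edgeR, DESeq2 or limma-voom, and 0 had an unadjusted edgeR p under 0.05. Over all genes, 9.0% were higher and 8.63% lower in edgeR. The shares were 12.2% and 12.1% in DESeq2 and 8.59% and 8.69% in limma-voom. With 5 genes, a count of 0 thus says little. Txnrd1, the cytosolic thioredoxin reductase, was at 113, 95.8 and 94.0 CPM in control samples and at 90.6, 90.3 and 87.5 CPM in cachexia samples. The cachexia values were all below the control values, but by little beside the spread of the controls (log2 fold change -0.18 ± 0.12, edgeR adjusted p = 0.357). The thioredoxin gene with the highest FPKM was Txn1, the cytosolic thioredoxin, which was between 83.4 and 105 CPM in control samples and between 86.0 and 124 CPM in cachexia samples (log2 fold change 0.12 ± 0.17, edgeR adjusted p = 0.649). Txn2 and Txnrd2, which act in mitochondria, and Txnrd3 had overlapping groups and log2 fold changes between -0.31 and 0.06.

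Peroxiredoxins are enzymes that reduce hydrogen peroxide with electrons from thioredoxin. In this family of 7 genes 1 was lower, where 8.63% of all genes were, and the gene that fell was Srxn1. It encodes sulfiredoxin, which restores peroxiredoxins whose active cysteine has been overoxidized (ENSMUSG00000032802, chr2:152105516-152111376). Its levels were 44.2, 39.8 and 39.4 CPM in control samples and 22.6, 28.2 and 17.7 CPM in cachexia samples, a log2 fold change of -0.85 ± 0.18 (0.555-fold, edgeR adjusted p = 0.0196), with no overlap. The edgeR adjusted p was 0.0592 without control replicate 2, 0.0691 without control replicate 3 and 0.0559 without cachexia replicate 1. Prdx1, a cytosolic enzyme with the highest FPKM of the 7 genes in control samples (179.9, against 95.5 for Prdx3) and level with Prdx3 in cachexia samples (127 and 128), was at 534, 539 and 590.3 CPM in control samples and at 374, 375 and 439 CPM in cachexia samples. Its groups did not overlap, but its log2 fold change of -0.49 ± 0.15 missed the threshold (edgeR adjusted p = 0.0663). Prdx1 passed in 3 of 17 alternative settings, with an adjusted p of 0.00393 in DESeq2.

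A further 3 peroxiredoxins, chosen for mention after their values were seen, had groups apart without passing. Groups were apart, passing or not, for 40.5% of all genes tested. Prdx6, which also acts on phospholipid peroxides, was at 449, 440.1 and 446 CPM in control samples and at 277, 315 and 345 CPM in cachexia samples (log2 fold change -0.51 ± 0.15, edgeR adjusted p = 0.0527). Prdx4 of the endoplasmic reticulum was also below its controls (log2 fold change -0.51, edgeR adjusted p = 0.103), while the mitochondrial Prdx3 was above, at 133, 151 and 145 CPM in control samples and 221, 165 and 197 CPM in cachexia samples (log2 fold change 0.44 ± 0.15, edgeR adjusted p = 0.0809). The median log2 fold change of the 7 genes was -0.49. Prdx6 passed the threshold in 6 of 17 alternative settings, with adjusted p-values of 0.0444 in the newer form of edgeR's test, 0.0480 in edgeR without cachexia replicate 3 and 0.00248 in DESeq2, where Prdx3 passed too (0.0375). Prdx2 and Prdx5, which overlap other genes on the opposite strand, had overlapping values near their control levels (log2 fold changes of -0.03 and -0.09).

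**Figure D4:**
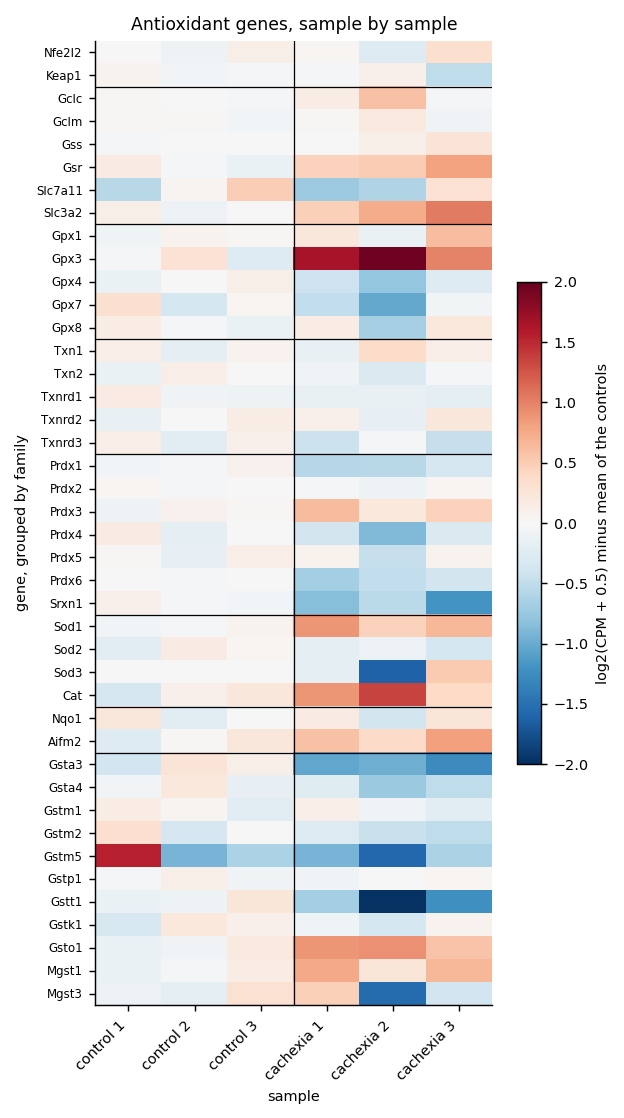
Heatmap of the 42 genes (rows, by family) in each of the 6 samples (columns), colored by log2(CPM + 0.5) minus the mean of the control samples. Gpx3 is red and Gsta3 and Gstt1 are blue in all 3 cachexia columns, and Gstm5 is red in control replicate 1 alone.

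Superoxide dismutases and catalase, 4 genes, held 1 that was higher, where 9.0% of all genes were. The gene that rose was Sod1. It encodes the copper and zinc superoxide dismutase of the cytosol (ENSMUSG00000022982, chr16:90220754-90226329). Its levels were 346, 351 and 377 CPM in control samples and 663, 491 and 568 CPM in cachexia samples, with no overlap, a log2 fold change of 0.68 ± 0.17 (edgeR adjusted p = 0.0307). Sod1 passed in 9 of 17 alternative settings, the fewest of the 8 genes. The adjusted p rose above 0.05 when any sample but cachexia replicate 2 was left out (0.0694 without control replicate 1, 0.111 without control replicate 2, 0.109 without control replicate 3, 0.0830 without cachexia replicate 1 and 0.0506 without cachexia replicate 3, all from edgeR). Scaf4 lies across Sod1 on the other strand, with 5810 reads over all libraries against 47694 for Sod1.

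Catalase, the peroxisomal enzyme that splits hydrogen peroxide, had the highest FPKM of this family. Cat was at 577, 777 and 851 CPM in control samples and at 1331, 1849 and 954 CPM in cachexia samples. All cachexia values were above all control values, replicate 3 by the smallest margin, and the log2 fold change was 0.91 ± 0.28 (1.88-fold, edgeR adjusted p = 0.0616). Cat passed without cachexia replicate 3 (log2 fold change 1.12, edgeR adjusted p = 0.0332), and in DESeq2 (adjusted p = 0.00559). Sod2, the mitochondrial manganese enzyme, had overlapping groups (log2 fold change -0.23, edgeR adjusted p = 0.321). Other genes share 12.8% of the 100-base windows of Sod2 transcripts, so its count is uncertain. The extracellular Sod3, mentioned after its values were seen, was at 395, 389.8 and 394 CPM in control samples and at 345, 128 and 567 CPM in cachexia samples, so that the cachexia samples lay on both sides of a narrow control range (log2 fold change -0.18 ± 0.44, edgeR adjusted p = 0.814).

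Neither Nqo1 nor Aifm2 passed the test, which says little with 2 genes, where 9.0% of all genes were higher and 8.63% lower. Nqo1, a quinone reductase often used as a reporter of NRF2 activity, was low, at 11.3, 8.14 and 9.63 CPM in control samples and at 10.8, 7.31 and 11.4 CPM in cachexia samples (log2 fold change 0.02 ± 0.24, edgeR adjusted p = 0.959). Aifm2, which encodes the ubiquinone reductase FSP1, was at 199, 243 and 279 CPM in control samples and at 359, 309.8 and 419.6 CPM in cachexia samples. Its groups did not overlap, and its log2 fold change of 0.59 ± 0.19 (1.51-fold) missed the threshold (edgeR adjusted p = 0.0653). In DESeq2 and with plain library totals Aifm2 passed. Aifm2 and Gpx4, which act in separate routes against lipid peroxides, thus had group values that were apart in opposite directions, neither past the threshold in edgeR.

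The 11 glutathione S-transferases, which join glutathione to reactive compounds, held 1 gene that rose and 2 that fell (9.0% and 8.63% of all genes). Gsto1, an omega class enzyme that also reduces dehydroascorbate (ENSMUSG00000025068, chr19:47854970-47864790), was at 44.4, 46.5 and 56.2 CPM in control samples and at 90.3, 92.2 and 72.5 CPM in cachexia samples. The log2 fold change was 0.80 ± 0.15 (1.74-fold, edgeR adjusted p = 0.0129), with no overlap, and without control replicate 2 the adjusted p was 0.0582. Cfap43 lies across Gsto1 on the other strand, with 1554 reads over all libraries against 6844 for Gsto1. Gsta3, an alpha class enzyme (ENSMUSG00000025934, chr1:21240589-21265661), fell from 205, 319.5 and 289 CPM to 129, 135 and 110.1 CPM. Its log2 fold change was -1.12 ± 0.19 (0.460-fold, edgeR adjusted p = 0.00951), the lowest adjusted p of the 42 genes, and its log2 fold change was -1.08 without control replicate 3, where it no longer passed. Gstt1, a theta class enzyme (ENSMUSG00000001663, chr10:75783813-75798584), fell from 105, 107 and 136 CPM to 72.0, 28.8 and 49.0 CPM (log2 fold change -1.22 ± 0.30, 0.430-fold, edgeR adjusted p = 0.0311). Gstt1 lost its call without control replicate 1 (adjusted p = 0.0512), control replicate 2 (0.0737), control replicate 3 (0.108) or cachexia replicate 3 (0.0806), again by edgeR.

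The most abundant transferase by FPKM was Mgst1, a microsomal enzyme that also reduces lipid peroxides. It was at 669, 719.8 and 808 CPM in control samples and at 1236, 865 and 1162 CPM in cachexia samples, apart but not past the threshold (log2 fold change 0.57 ± 0.20, edgeR adjusted p = 0.0877). Mgst1 passed in DESeq2 (adjusted p = 0.0143) and, in edgeR, without cachexia replicate 2 (adjusted p = 0.0490). The largest fitted difference of all 42 genes except Gpx3 was that of Gstm5, and it rested on control replicate 1. This mu class gene, mentioned after its values were seen, was at 186, 32.8 and 40.3 CPM in control samples and at 32.9, 20.8 and 40.1 CPM in cachexia samples. Its log2 fold change was -1.47 ± 0.64 (edgeR adjusted p = 0.148), and -0.23 (adjusted p = 0.610) without control replicate 1, the sample with the epithelial genes. Mgst3, also mentioned after its values were seen, was at 182, 173 and 244 CPM in control samples and at 276, 67.7 and 151 CPM in cachexia samples, again low in cachexia replicate 2. Gsta4 was apart below its controls (log2 fold change -0.50, edgeR adjusted p = 0.0922), and Gstm1, Gstm2, Gstp1 and Gstk1 had overlapping groups with log2 fold changes between -0.44 and -0.02. Of the 100-base windows of Gstp1 transcripts, 25.1% also occur in Gstp2 or a pseudogene, so its count is uncertain, and for Gstm1 the share was 5.86%.

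Genes around the 42 were read in 7 further lists, 142 genes in all, of which 130 could be tested, 23 were higher and 17 lower, where 9.0% of all genes were higher and 8.63% lower. Their median log2 fold change was -0.04. Without control replicate 1 the counts were 14 higher and 17 lower, without control replicate 2 they were 10 and 11, and without control replicate 3 they were 8 and 7. Genes named from these lists are those with the smallest p in each direction, up to 3, with Txnip, G6pdx, Bach1 and Hmox1 added.

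NADPH supply, which powers both thiol systems, was the list with the lowest median. Of its 17 tested genes 6 were lower and 1 was higher (8.63% and 9.0% of all genes), and the median log2 fold change was -0.56. Pgd, an NADPH-making enzyme of the pentose phosphate pathway, fell from 443, 544 and 484 CPM to 159.6, 167 and 134 CPM (log2 fold change -1.68 ± 0.16, edgeR adjusted p = 0.00164). Me1, the cytosolic malic enzyme, fell from 538, 1661 and 1002 CPM to 248, 242 and 174 CPM (-2.27 ± 0.40 on the log2 scale, edgeR adjusted p = 0.00974). Idh1, the cytosolic isocitrate dehydrogenase, fell from 337, 388 and 448 CPM to 132, 157 and 84.1 CPM (-1.65 ± 0.25 on the log2 scale, edgeR adjusted p = 0.00583). All 3 passed with each sample left out in turn. G6pdx, which opens the pentose phosphate pathway, was at 204, 238 and 255 CPM in control samples and at 183, 127 and 211 CPM in cachexia samples, which overlap (log2 fold change -0.42, edgeR adjusted p = 0.195). Nadk2, the mitochondrial NAD kinase, was the gene that rose (log2 fold change 0.57, edgeR adjusted p = 0.0300), and it passed in 1 of the 6 fits that left out a sample. Pgd, Me1 and Idh1 are also known as lipogenic enzymes of adipocytes. Without control replicate 3, 3 genes of the list were lower and 0 higher in edgeR.

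In the list of glutathione removal, transport and thiol exchange, 5 of 28 genes were higher and 3 lower (9.0% and 8.63% of all genes). Chac1, which breaks down glutathione inside the cell, rose from 2.16, 4.70 and 3.29 CPM to 32.9, 36.8 and 24.3 CPM, a log2 fold change of 3.22 ± 0.30 (9.29-fold, edgeR adjusted p = 0.00156), and passed with each sample left out. Its relative Chac2 went the other way, from 8.83, 11.2 and 10.9 CPM to 5.07, 4.42 and 5.18 CPM (log2 fold change -1.07 ± 0.21, edgeR adjusted p = 0.0150). Asb3 lies across Chac2 on the other strand, with 1378 reads over all libraries against 802 for Chac2, so this count is uncertain. Txnip, which binds and inhibits thioredoxin, rose from 717, 1226 and 1024 CPM to 3655, 3795 and 3689 CPM (log2 fold change 1.91 ± 0.25, 3.75-fold, edgeR adjusted p = 0.00398), and it too passed with each sample left out. Glrx5, a mitochondrial glutaredoxin of iron-sulfur cluster assembly, rose (log2 fold change 0.69), while Msra, a methionine sulfoxide reductase, and Cth, which makes cysteine, fell (log2 fold changes of -0.62 and -0.86). Without control replicate 3, where 2 genes of the list were higher and 0 lower in edgeR, Chac2, Glrx5, Msra and Cth did not pass, with Chac2 at an adjusted p of 0.0774, and Chac2 and Cth did not pass without control replicate 2 either.

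Partners and regulators of NRF2 were higher for 5 of 16 genes and lower for 0 in edgeR, where 9.0% of all genes were higher and 8.63% lower. At an unadjusted p under 0.05 the counts were 6 and 0, and in DESeq2 they were 5 and 0. Maff, a small MAF protein that pairs with NRF2 or with its competitors on DNA, rose from 6.92, 9.40 and 8.16 CPM to 24.4, 34.2 and 46.1 CPM (log2 fold change 2.10 ± 0.25, edgeR adjusted p = 0.00314). Mafk, a relative with the same role, rose from 30.7, 31.0 and 27.4 CPM to 62.5, 48.7 and 72.0 CPM (log2 fold change 1.04 ± 0.16, edgeR adjusted p = 0.00705). Sesn1, a sestrin, rose from 69.8, 66.7 and 62.0 CPM to 113, 137 and 155 CPM (log2 fold change 1.03 ± 0.15, edgeR adjusted p = 0.00536). Each of the 3 passed with every sample left out in turn. Bach1, the repressor that competes with NRF2, had overlapping groups (log2 fold change 0.37, edgeR adjusted p = 0.283). Without control replicate 1, 2 or 3, in each case 3 genes of the list were higher.

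**Figure D5:**
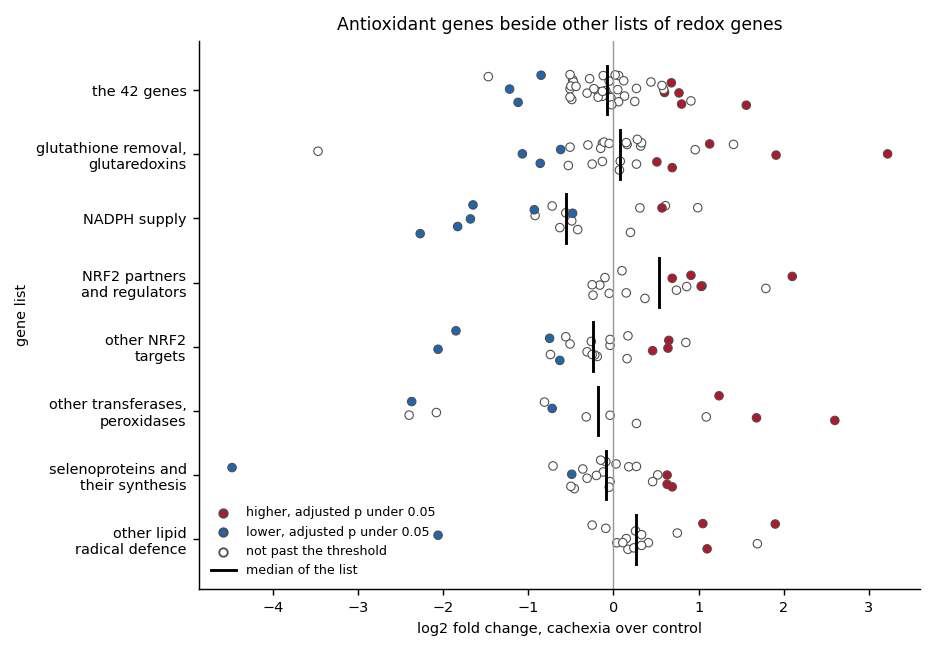
Log2 fold change of cachexia over control for the 42 genes and for 7 further lists of redox genes, 1 point a gene, with the median of each list as a vertical bar and color for genes past the threshold. The 42 genes are spread on both sides of 0 with a median of -0.08, and the NADPH list has the lowest median, -0.56.

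The other 4 lists held calls in both directions, to be read against 9.0% higher and 8.63% lower over all genes. Of 20 tested genes described as NRF2 targets, 3 were higher (Abhd4, Cbr1 and Ugdh, with log2 fold changes of 0.64, 0.65 and 0.46) and 4 lower, among them Ptgr1 (-2.06), Osgin1 (-1.85) and Akr1b3 (-0.63). Hmox1, the heme oxygenase that NRF2 and BACH1 control, was at no more than 44.2 CPM in control samples and at 131, 57.4 and 34.5 CPM in cachexia samples, with cachexia replicate 1 far above the rest (log2 fold change 0.85 ± 0.42, edgeR adjusted p = 0.195). Of 12 further transferases and peroxidases, Gstt2 (1.68), Mgst2 (1.24) and Gstp3 (2.60) rose and Ptges (-2.37) and Gstz1 (-0.72) fell, with the log2 fold change in brackets. Gstt2 rose from 32.5, 29.2 and 29.4 CPM to 107, 108 and 76.3 CPM, opposite in direction to Gstt1, which also lies on chromosome 10. Gstp3 rested on 102 reads over all libraries.

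Among 21 genes of selenoproteins and their synthesis, the family to which the glutathione peroxidases Gpx1, Gpx3 and Gpx4 and the thioredoxin reductases belong, 3 were higher and 2 lower (9.0% and 8.63% of all genes). The higher genes serve the making of selenoproteins, with Scly at a log2 fold change of 0.69 and Trnau1ap and Sephs2 at 0.63. Selenot fell (log2 fold change -0.49), and Dio2, a deiodinase, passed as lower with 0.953 to 2.04 CPM in control samples and 0.0583 to 0.0656 CPM in cachexia samples, too few reads for a fold. Of 17 genes of other defences against lipid peroxides and radicals, Coq8a (1.90), Ucp2 (1.10) and Ucp3 (1.05) rose and Ptgr1 fell. Coq8a, which supports ubiquinone synthesis, rose from 41.8, 34.2 and 35.4 CPM to 149.7, 181 and 86.0 CPM and passed with each sample left out (edgeR adjusted p = 0.00472), but Cdc42bpa lies across it on the other strand with 10398 reads against 8889. Of the genes named in these 4 lists, Ptgr1, Osgin1, Gstt2, Mgst2, Ptges, Dio2 and Coq8a kept their calls with each sample left out. The others lost it in at least 1 of the 6, with edgeR adjusted p-values without control replicate 3 between 0.0722 (Abhd4) and 0.176 (Selenot).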

How the data were processed

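RNA-seq of 3 eWAT samples from cachectic mice and 3 from control mice was analyzed, with samples grouped by their labels. The authors sequenced total RNA as paired-end reads, filtered these for quality, aligned them by Hisat2 and made gene counts with featureCounts 1.5.0-p3. They deposited raw counts and FPKM values, the latter calculated from count and gene length. Against count, length and library total, the deposited FPKM are off by 0.932 to 1.06 times, depending on the sample, and the rule is not given in the sources used here. The submitters' processing notes name the mm9 build, but 98.3% of the genes shared with GENCODE M21 (GRCm38), and 41 of the 42 genes described, have the coordinates of that release. Strand use in counting is not given in the sources used here, so counts of genes that overlap others, Txnrd2 included, are uncertain. The authors' table of DEGs (fold changes and p-values from DESeq2 1.16.1) was not used, and neither were its 6 columns of per-sample values.

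The test was edgeR 4.0.16 in R 4.3.3 (filterByExpr, TMM factors of 0.937 to 1.07, glmQLFit and glmQLFTest, no covariates, Benjamini-Hochberg adjustment over 16003 genes, threshold 0.05). The biological coefficient of variation common to all genes was 0.264, with total counts of 14928766 to 18855546. The precision of a gene is given by its own standard error. A standard error is the log2 fold change divided by the square root of F. Levels are CPM on TMM-normalised library sizes, and FPKM where genes are compared. Two-sided exact permutation tests used log2(CPM + 0.5). Of the 15 pairs of samples none had near-identical counts. Alternatives used DESeq2 1.42.0 and limma 3.58.1 (voom, log2(FPKM + 1) with and without a filter at 0.5 FPKM, and log2(FPKM + 0.1) with that filter). Further settings were other scalings and filters, a replicate block, each sample left out, and, chosen after seeing the data, the newer form of edgeR's test. The steps were tested on simulated data with a common spread and changes larger than that of Gpx3, so power for smaller changes was not tested.

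Promoters (RefSeq, GRCm38.p6) were matched by symbol for 37 of the 42 genes. Shared 100-base windows were counted in GENCODE M21 transcripts. The genes and lists were chosen with earlier results of these data known. Values per sample are given for genes past the threshold, for Nfe2l2, Keap1, Gclc, Gclm, Slc7a11, Gpx4, Txnrd1, Nqo1 and Aifm2, and for the gene of each family with the highest mean FPKM (Txn1 by its range). From each further list, the 3 genes with the smallest p in each direction among those past the threshold are named, with Hmox1, Txnip, G6pdx and Bach1.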

Additional observations from a re-analysis of the deposited data

How the results depend on the processing

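All 8 genes past the threshold kept their direction in the 17 alternative settings, and no count of calls among the 42 genes was the same in all of them. The 5 higher genes became 2 with a replicate block, 9 in DESeq2, 1 with log2(FPKM + 1) and no filter, and 1 to 6 with a sample left out. The 3 lower genes became 6 in DESeq2, 5 with log2(FPKM + 1) or log2(FPKM + 0.1), 1 with log2(FPKM + 1) and no filter, and 0 to 3 with a sample left out. Without control replicate 3 only Gsto1 passed, and without control replicate 2 only Gpx3 and Gsta3. The counts over the 7 further lists, 23 higher and 17 lower, became 10 and 11 with log2(FPKM + 1) and no filter, 8 to 22 and 7 to 17 with a sample left out. Over all genes, 1440 higher and 1381 lower became 913 and 968 with the replicate block and 1955 and 1929 in DESeq2. DESeq2 thus called 12.2% of all genes higher and 12.1% lower, against 9.0% and 8.63% in edgeR. The all-gene counts became 644 and 645 with log2(FPKM + 1) and no filter. With a sample left out they ranged from 382 to 1197 and from 446 to 1142. The median log2 fold change of the 42 genes, -0.08, lay between -0.16 and -0.01 with a sample left out. Fewer samples leave less to estimate the spread from, and the cause of the other shifts was not tested.

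The labels do not say whether the replicate numbers pair animals. Deviations of same-numbered samples from their group means correlated at -0.003, -0.011 and 0.008, and not every sample correlated best with its own number. With 3 samples a group, such correlations cannot decide whether the numbers reflect a pairing. With the block Gsr, Slc3a2 and Sod1 did not pass.

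Genes whose sign turned had not passed the test. With plain library totals Prdx2 was at 0.02 and Gstp1 at 0.04 on the log2 scale, and Nqo1 was at 0.00 in limma-voom and with log2(FPKM + 1), filtered or not, and at -0.01 with log2(FPKM + 0.1). With a sample left out the log2 fold change ranged from -0.10 to 0.18 for Nfe2l2, from -0.24 to 0.04 for Keap1, from -0.02 to 0.12 for Gclm, from -0.20 to 0.18 for Gpx8, from -0.01 to 0.25 for Txn1, from -0.02 to 0.17 for Txnrd2, from -0.06 to 0.01 for Prdx2, from -0.18 to 0.06 for Prdx5, from -0.72 to 0.22 for Sod3, from -0.09 to 0.20 for Nqo1, from -0.16 to 0.04 for Gstm1, from -0.06 to 0.04 for Gstp1 and from -0.87 to 0.10 for Mgst3. Within that range, leaving out 1 sample gave 0.01 or -0.01 for Nfe2l2, Txnrd2 and Gstp1, 0.02 for Gpx8 and Gstm1, and -0.05 for Nqo1. Depth limits mainly Slc7a11, with 9 reads in its lowest library.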
